A study of Sus scrofa with 17 samples.

Results

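Fatty acid uptake and oxidation enzymes were followed in RNA sequencing counts from the pressure-loaded right ventricle of pigs (Sus scrofa). The genes were listed by name for their place in the pathway, from uptake at the cell surface to the last steps of oxidation, and not by their measured values. Of 34 listed genes, 33 were matched by symbol in a table of 35670 genes and all 33 passed the low-count filter, among 15884 genes that did. CD36, a fatty acid transporter of the plasma membrane, is not analysed here.

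The 17 libraries came from 17 animals, and every animal, controls included, had right ventricular pressure overload. The multidose group (n = 7) was given mononuclear cells from umbilical cord blood repeatedly, the single dose group (n = 5) was given them once, and the vehicle control group (n = 5) was given vehicle. Series text places the cells by injection into the heart muscle and describes replicates as individual animals. For single libraries the labels state no sex, weight, batch, dose or time of harvest, and no group without pressure overload was analysed.

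Heart muscle draws most of its energy from fatty acids. Lipoprotein lipase frees them from circulating triglycerides, binding proteins and transporters carry them, and acyl-CoA synthetases activate them at the outer mitochondrial membrane. The carnitine shuttle then takes the acyl groups into mitochondria, where rounds of dehydrogenation, hydration, a second dehydrogenation and thiolysis shorten the chain. Acyl-CoA dehydrogenases pass their electrons through electron transfer flavoprotein to the respiratory chain, and peroxisomes begin the oxidation of chains that mitochondria handle poorly. Loss of expression of these genes is a known feature of the failing, pressure-loaded heart.

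The libraries held 21754800 to 61144663 counts, and the 33 genes took 0.791% to 1.24% of them. Multidose 1 to 4 and single dose 1, 5 libraries in all, have names in M1, and the other 12 libraries, including all controls, have names in M8 or M9. Some names end in the suffix R. Among M1 libraries multidose 4 alone has it, and among M8 and M9 libraries only multidose 5 and vehicle control 3 lack it. The suffix thus largely overlaps the name class. What the names stand for is not given in the labels. The M1 libraries were shallower, at 21754800 to 40969168 counts against 40621934 to 61144663 in the M8 and M9 libraries. Of the M1 libraries multidose 4 was the deepest, and the others held 21754800 to 24356210 counts. Cardiomyocyte genes were abundant throughout, with MYH7, the slow myosin heavy chain, at 9587 to 36866 CPM (counts relative to library size) and cardiac troponin T (TNNT2) at 6667 to 11834 CPM. CPM values are scaled by TMM library factors, log2 fold changes (log2FC) are those of edgeR's quasi-likelihood fit, and a gene was called at an adjusted p under 0.05 over all 15884 genes.

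**Figure D1:**
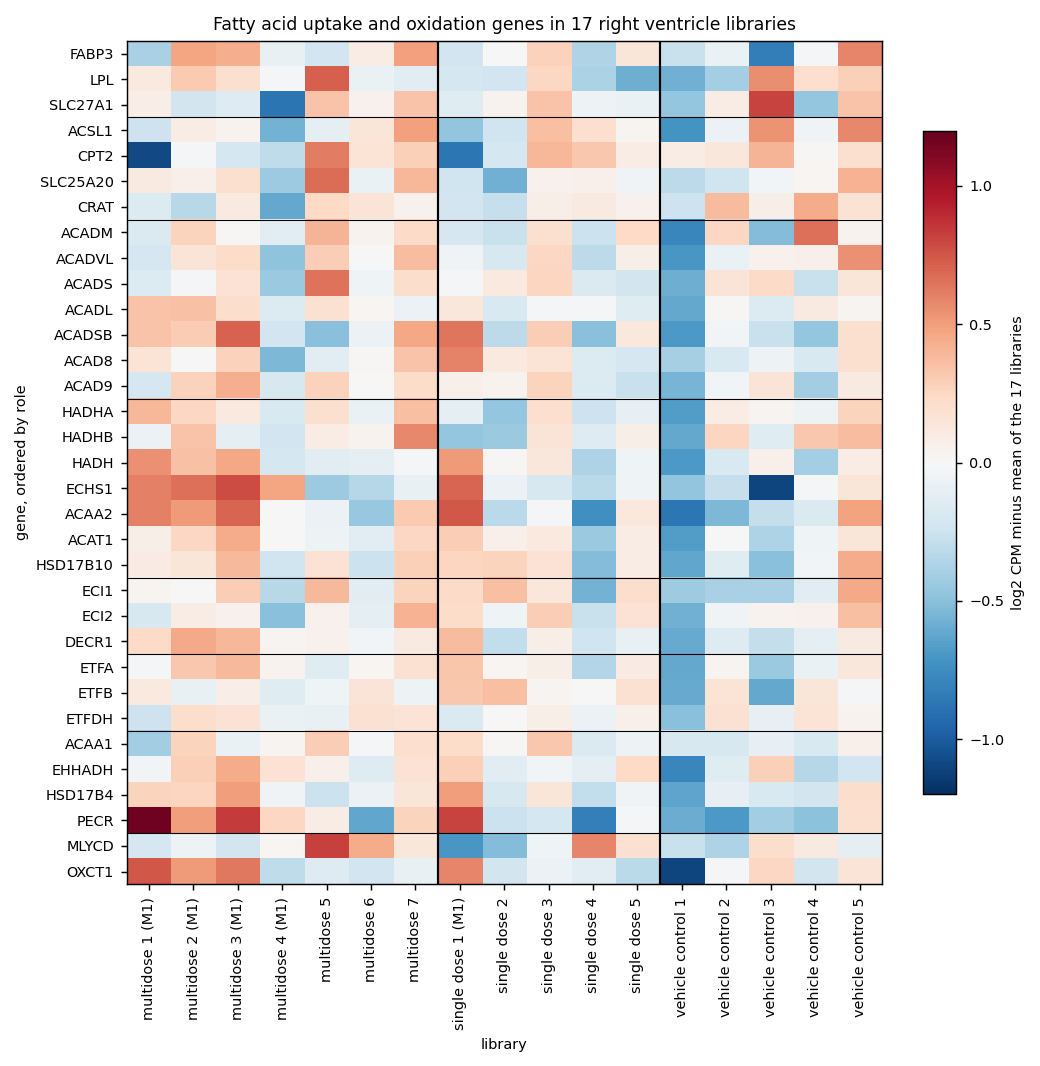
Each row is 1 of the 33 genes, grouped by role, and each column 1 of the 17 libraries, with multidose libraries left, single dose libraries in the middle and vehicle controls right. Colour gives log2 CPM minus the gene's mean over the 17 libraries: vehicle control 1 was blue in all rows except that of CPT2, and the M1 libraries were red for ECHS1 and PECR.

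A single animal set the low end for much of the pathway. In vehicle control 1, which was singled out after its values were seen, 20 of the 33 genes (60.6%) had their lowest level of all 17 libraries, against 6.48% of all genes tested. These 20 included 6 of the 7 acyl-CoA dehydrogenases and 6 of the 7 enzymes of the later mitochondrial steps. All 33 genes lay below the mean of the other 4 controls in this library, where 47.8% of all genes did, and the median difference was -0.56 on the log2 CPM scale against 0.02 for all genes. The difference was -1.14 for OXCT1, which encodes the enzyme that commits ketone bodies to oxidation, and -0.97 for ACSL1, the main acyl-CoA synthetase of heart. It was -0.89 for ACADM and -0.84 for ACADVL, the medium-chain and very long-chain acyl-CoA dehydrogenases. CPT2, at -0.10, and the peroxisomal thiolase gene ACAA1, at -0.09, differed least.

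The same library differed from the other controls in its cell type markers. Its 13 cardiomyocyte markers summed to 51185 CPM, the lowest sum of the 17 libraries, against 69753 to 79937 CPM in the other controls, and 12 of the 13 lay below the mean of those controls. All 10 fibroblast markers (sum 7088 CPM, against 4101 to 5247 CPM) and all 11 endothelial markers (sum 1727 CPM, against 1045 to 1586 CPM) lay above it, with median differences of 0.68 and 0.47 on the log2 CPM scale. So did all 4 erythroid markers (median 2.12), 8 of 9 T and natural killer cell markers (0.95) and 7 of 9 macrophage and monocyte markers (0.79). The 19 tricarboxylic acid (TCA) cycle genes, which oxidise the acetyl-CoA that the pathway delivers, were all lower as well, by a median of -0.57. Nuclear genes of respiratory complex I had a median of -0.06 in the same comparison, with 20 of 32 below the mean of the other controls. That mean includes vehicle control 3, which held the lowest level of the 17 libraries for 26 of the 32. It did so for 3 of the 33 fatty acid genes and 14% of all genes, so the complex I median is not directly comparable with the others. In these bulk libraries fewer cells of a type and less RNA per cell cannot be told apart, and the part of cell composition in the low values was not tested. In the comparisons with controls, the medians and counts of the 33 genes and the values of most genes described singly are given with and without vehicle control 1.

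**Figure D2:**
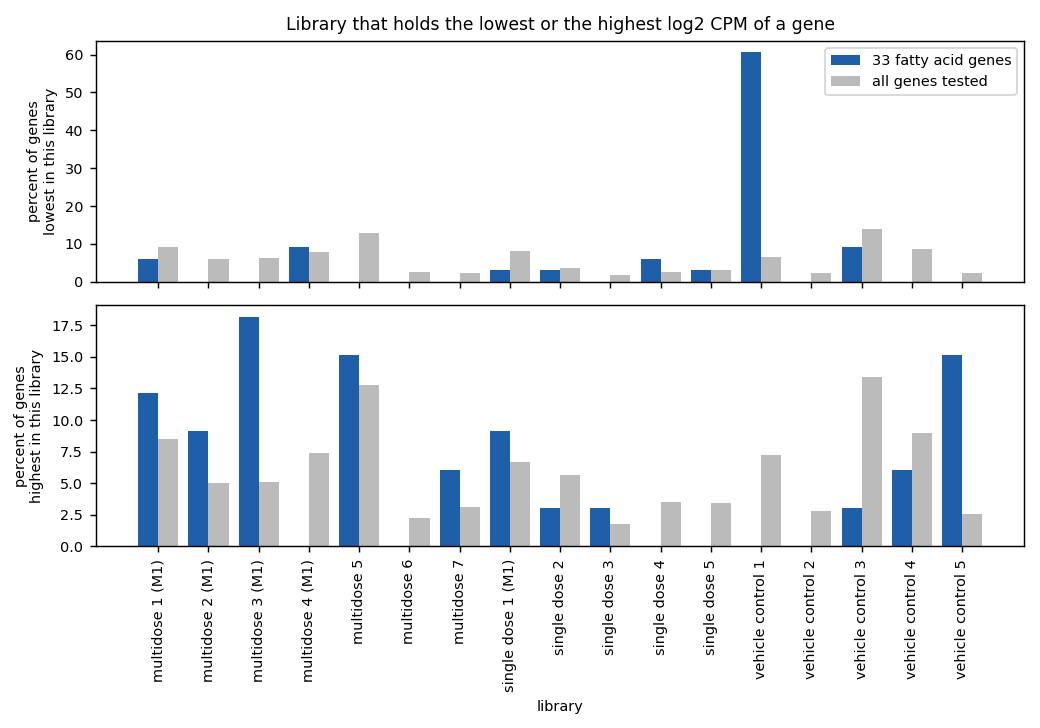
For each of the 17 libraries (x axis), bars give the percentage of genes whose lowest (top) or highest (bottom) log2 CPM of the 17 libraries lay in that library, blue for the 33 fatty acid genes and grey for all genes tested. Vehicle control 1 held the lowest level of 60.6% of the fatty acid genes and of 6.48% of all genes.

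Within the dosing groups the 33 genes varied about as much as other genes, with a median SD of 0.32 log2 units against 0.35 for all genes tested. ETFDH, whose product hands electrons from electron transfer flavoprotein to ubiquinone, was the steadiest, with an SD of 0.20 and a 1.64-fold range over the 17 libraries. The widest ranges were those of PECR (3.96-fold), a reductase of peroxisomal chain metabolism, ECHS1 (3.68-fold), the short-chain enoyl-CoA hydratase, and OXCT1 (3.58-fold). The highest level of a gene fell most often in multidose 3 (6 genes, 18.2%, against 5.06% of all genes tested). Multidose 5 and vehicle control 5 followed with 5 genes each (15.2%), against 12.7% and 2.52% of all genes.

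Repeated dosing was compared with vehicle to ask how several cell doses change expression in the loaded ventricle. No fatty acid gene passed (0 of 33 by edgeR, and 0% of all genes tested). Of the 33, 4 had an unadjusted p under 0.05, against 12.6% of all genes, and 0 had groups that did not overlap (0.145% of all genes on the high side and 0.126% on the low side). DESeq2 called 8 genes and limma-voom 0 in the whole table, and neither called a fatty acid gene. Log2FC was positive for 28 of the 33 genes, against 49.3% of all genes, with a median of 0.20 against -0.01. All 7 acyl-CoA dehydrogenases (0.05 to 0.42), all 7 enzymes of the later steps (0.03 to 0.59), the 3 electron transfer flavoprotein genes (0.07 to 0.29) and the 4 peroxisomal genes (0.18 to 0.81) were positive. The activation and carnitine shuttle genes were negative in 3 of 4 cases. These values share their controls with those of the single dose comparison, so the 2 sets are not independent.

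That lean toward positive values was smaller without the low control. With vehicle control 1 left out the median was 0.13, with 23 genes positive, while 29 were positive with vehicle control 3 left out. In the M8 and M9 libraries alone (3 multidose and 5 control libraries) it was 0.18, with 30 positive against 47.7% of all genes and 1 gene, MLYCD, at an unadjusted p under 0.05 (0.55, SE 0.23, adjusted p = 0.9998 by edgeR) against 3.66% of all genes. Leaving out vehicle control 1 there as well gave a median of 0.076, with 28 positive. The summed cardiomyocyte markers ran from 66449 to 94876 CPM in multidose libraries and from 51185 to 79937 CPM in controls, and 10 of the 13 had positive values. Their part in the difference was not tested.

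PECR (ENSSSCG00000022758, chromosome 15, 118296359 to 118335886 on Sscrofa11.1) had the smallest p. It measured 10.7 to 37.0 CPM after multiple doses (median 19.8), against 10.9, 10.2, 12.3, 11.7 and 18.9 CPM in vehicle controls 1 to 5. The groups overlapped, with multidose 1, 2, 3, 4 and 7 above every control. Log2FC was 0.81 (SE 0.29, adjusted p = 0.366 by edgeR), 0.76 (SE 0.32) without vehicle control 1 and 0.31 (SE 0.24) in the M8 and M9 libraries.

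DECR1 (ENSSSCG00000006126, chromosome 4, 46731359 to 46767427), the dienoyl-CoA reductase that makes unsaturated chains fit for oxidation, followed. Multidose libraries lay between 166 and 232 CPM with a median of 182, and vehicle controls 1 to 5 at 112, 152, 139, 157 and 182 CPM. Every multidose library lay above vehicle controls 1 to 4, and vehicle control 5 lay inside the multidose range. The log2FC of 0.38 (SE 0.15, adjusted p = 0.370 by edgeR) was 0.29 (SE 0.15) without vehicle control 1 and 0.22 (SE 0.16) in the M8 and M9 libraries.

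ECHS1 (ENSSSCG00000038086, chromosome 14, 141340320 to 141348870) came next. It measured 145 to 337 CPM after multiple doses (median 273), against 141, 162, 91.5, 194 and 218 CPM in vehicle controls 1 to 5. The high multidose values were those of the M1 libraries, while multidose 5, 6 and 7 measured 145, 155 and 185 CPM, inside the control range. Its log2FC was 0.59 (SE 0.26, adjusted p = 0.385 by edgeR) in all libraries, 0.55 (SE 0.28) without vehicle control 1 and -0.01 (SE 0.23) in the M8 and M9 libraries alone. Without vehicle control 3, the lowest library, the log2FC of ECHS1 was 0.45 (SE 0.26). EHHADH, the remaining gene with an unadjusted p under 0.05, was at 0.35 (SE 0.15, adjusted p = 0.387 by edgeR). It was at 0.23 (SE 0.14) without vehicle control 1 and at 0.50 (SE 0.14) without vehicle control 3.

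The other genes that stand for a step of the pathway had smaller values, with adjusted p between 0.527 and 0.879 by edgeR. FABP3 (ENSSSCG00000036883, chromosome 6, 87943003 to 87950708), the heart fatty acid binding protein, measured 1175 to 2160.5 CPM after multiple doses (median 1635), against 1277, 1461, 866, 1513 and 2313 CPM in vehicle controls 1 to 5. Its log2FC was 0.20 (SE 0.22) with a 95% interval from -0.23 to 0.64. ACSL1 (ENSSSCG00000015784, chromosome 15, 45866858 to 45936327) measured 171 to 356 CPM (median 261) against 154, 241, 368, 246 and 376 CPM, a log2FC of -0.12 (SE 0.22). ACADM (ENSSSCG00000003776, chromosome 6, 137541481 to 137575544) lay between 513 and 769 CPM (median 599) against 336, 690.1, 405, 917 and 597 CPM, and its log2FC was 0.09 (SE 0.21). Without vehicle control 1 the log2FC of FABP3 was 0.15 (SE 0.24), that of ACSL1 -0.28 (SE 0.20) and that of ACADM -0.07 (SE 0.19). Leaving out vehicle control 3 put FABP3 at 0.06 (SE 0.21), ACSL1 at 0.00 (SE 0.23) and ACADM at -0.02 (SE 0.21). For FABP3, ACSL1 and ACADM the controls spread more widely than the multidose libraries, with controls on both sides of the multidose range. HADHA, the alpha subunit of the trifunctional protein that carries out the later steps on long chains, had a value of 0.20 (SE 0.16). ETFDH (ENSSSCG00000008877, chromosome 8, 47608499 to 47655889) measured 392 to 539 CPM after multiple doses (median 523), against 329, 529, 436, 524 and 481 CPM in the controls. Among the 33 genes ETFDH, at 0.07 (SE 0.13), and ACAA1, at 0.18 (SE 0.12), were estimated with the smallest errors. CPT2, the carnitine palmitoyltransferase of the inner membrane, was at -0.17 (SE 0.23), MLYCD, which removes the shuttle inhibitor malonyl-CoA, at 0.25 (SE 0.22) and OXCT1 at 0.34 (SE 0.25). Without vehicle control 1, HADHA was at 0.07 (SE 0.15), ETFDH at -0.03 (SE 0.12), CPT2 at -0.20 (SE 0.25), MLYCD at 0.20 (SE 0.23) and OXCT1 at 0.17 (SE 0.23). In the M8 and M9 libraries alone OXCT1 was at -0.05 and MLYCD at 0.55.

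**Figure D3:**
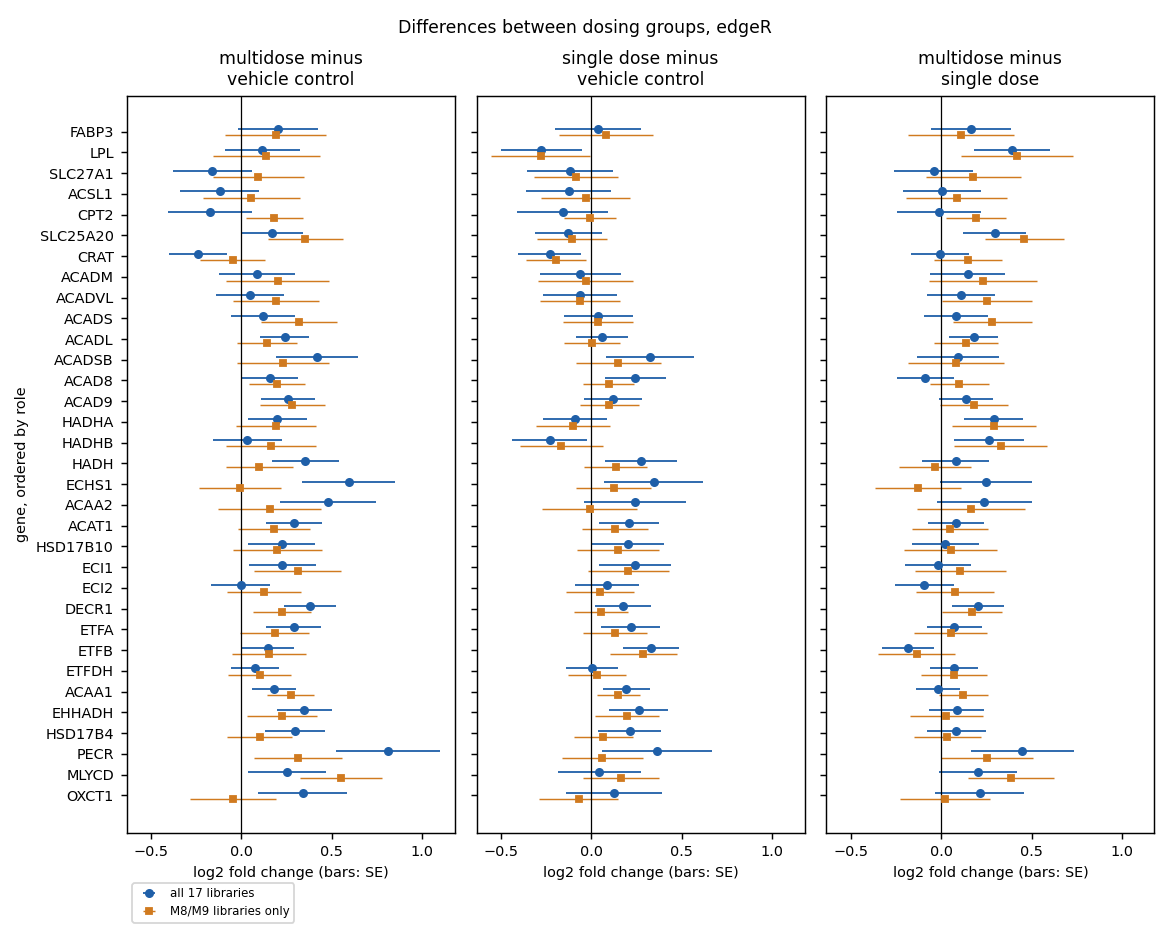
Log2 fold changes with their SE (x axis) of the 33 genes (y axis, by role) are drawn for the 3 comparisons of dosing groups, in blue from all 17 libraries and in orange from the 12 M8 and M9 libraries. No point passed an adjusted p of 0.05, and ECHS1 stood at 0.59 in all libraries but at -0.01 in the M8 and M9 libraries for multidose against vehicle control.

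A single dose was compared with vehicle in the same way, and 0 of 33 genes passed by edgeR, with 0% of all genes. DESeq2 called 10 genes of the whole table and limma-voom 0, none of them a fatty acid gene. Only ETFB had an unadjusted p under 0.05, while 5.26% of all genes did, and 0 of the 33 had groups that did not overlap (0.422% of all genes on the high side and 0.453% on the low side). Log2FC was positive for 23 of 33 genes (50.4% of all genes), with a median of 0.12 against 0.00. This median was -0.01, with 16 genes positive, without vehicle control 1, while 22 were positive without vehicle control 3. In the M8 and M9 libraries it was 0.05, with 21 positive (49.2% of all genes) and 0 at an unadjusted p under 0.05 by edgeR (3.54% of all genes), and -0.03, with 15 positive, there without that control.

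ETFB (ENSSSCG00000003229, chromosome 6, 58501892 to 58517580), the beta subunit of electron transfer flavoprotein, measured 254, 261, 207, 202 and 229.9 CPM in single dose libraries 1 to 5, against 133, 227, 132, 224 and 200.2 CPM in vehicle controls 1 to 5. Vehicle controls 1 and 3 lay far below the rest, and vehicle controls 2 and 4 lay inside the single dose range. Log2FC was 0.33 (SE 0.16, adjusted p = 0.891 by edgeR), and 0.23 (SE 0.15) without vehicle control 1.

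EHHADH (ENSSSCG00000040296, chromosome 13, 123104085 to 123162119), the bifunctional enzyme of peroxisomal oxidation, measured 24.4, 18.3, 19.6, 18.5 and 23.6 CPM after a single dose, against 11.6, 18.1, 24.4, 15.7 and 17.1 CPM in controls. ACAA1 (ENSSSCG00000011250, chromosome 13, 22964844 to 23020138) measured 30.8, 26.7, 33.1, 23.4 and 25.3 CPM, against 23.1, 23.1, 24.7, 23.3 and 27.5 CPM. Both pairs of groups overlapped. The log2FC was 0.26 (SE 0.16) for EHHADH and 0.19 (SE 0.13) for ACAA1, and edgeR gave both an adjusted p of 0.891. Without vehicle control 1 it was 0.14 (SE 0.15) for EHHADH and 0.17 (SE 0.14) for ACAA1. Leaving out vehicle control 3 put EHHADH at 0.42 (SE 0.15) and ACAA1 at 0.20 (SE 0.14). LPL had the lowest log2FC among the 33 genes in this comparison, at -0.28 (SE 0.22). It was -0.41 (SE 0.22) without vehicle control 1 and -0.13 (SE 0.22) without vehicle control 3. All 4 activation and carnitine shuttle genes were negative (-0.23 to -0.12).

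The genes standing for single steps showed wide overlap after a single dose. FABP3 measured 1313, 1539, 1862, 1199 and 1703 CPM in single dose libraries 1 to 5, all within the control range, and its log2FC was 0.04 (SE 0.24). ACSL1 measured 182, 215, 325, 289.8 and 258 CPM, a log2FC of -0.12 (SE 0.24), and ACADM 506, 482, 664, 486 and 685 CPM, a log2FC of -0.06 (SE 0.23). For both genes too the controls reached lower and higher than any single dose library. Without vehicle control 1 the log2FC was -0.02 (SE 0.25) for FABP3, -0.29 (SE 0.22) for ACSL1 and -0.21 (SE 0.20) for ACADM. Leaving out vehicle control 3 put FABP3 at -0.11 (SE 0.22), ACSL1 at -0.0017 (SE 0.24) and ACADM at -0.17 (SE 0.23). ETFDH, at 415, 466, 489.8, 444 and 488 CPM, had a log2FC of 0.00 (SE 0.14), with a 95% interval from -0.28 to 0.28. HADHA was at -0.09 (SE 0.18), CPT2 at -0.16 (SE 0.25), MLYCD at 0.04 (SE 0.23) and OXCT1 at 0.13 (SE 0.27). Leaving out the low control put HADHA at -0.22 (SE 0.16), ETFDH at -0.10 (SE 0.13), CPT2 at -0.19 (SE 0.27), MLYCD at -0.01 (SE 0.25) and OXCT1 at -0.05 (SE 0.25).

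Multidose and single dose libraries were compared directly to ask whether the dosing schedule matters. Again 0 of 33 genes and 0% of all genes passed by edgeR, with 0 of the 33 and 2.11% of all genes at an unadjusted p under 0.05. Groups that did not overlap were found for 0 of the 33, and for 0.0378% of all genes on the high side and 0.0315% on the low side. DESeq2 and limma-voom called 0 of the 33. Log2FC was positive for 25 of 33 genes (50.5% of all genes) with a median of 0.08 against 0.00. The controls are not part of the difference between these groups, but they share the filter, the scaling and the estimate of the spread. In the M8 and M9 libraries alone 30 were positive (49% of all genes) and 0 had an unadjusted p under 0.05 by edgeR (2.58% of all genes).

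LPL (ENSSSCG00000040631, chromosome 14, 4104761 to 4134964), lipoprotein lipase, measured 677 to 1225 CPM after multiple doses (median 808), against 641, 634, 883, 569 and 495 CPM in single dose libraries 1 to 5. Multidose 5 lay well above the rest, and single dose 3 lay inside the multidose range. Its log2FC was 0.39 (SE 0.21, adjusted p = 0.99998 by edgeR).

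HADHA (ENSSSCG00000008571, chromosome 3, 112753343 to 112797627) measured 679 to 1011 CPM (median 880.3) in multidose libraries, against 716, 557, 883, 648 and 719.9 CPM in single dose libraries. SLC25A20 (ENSSSCG00000011366, chromosome 13, 31523820 to 31553289), the carnitine-acylcarnitine carrier of the inner membrane, measured 38.1 to 82.2 CPM (median 55.6), against 43.8, 34.5, 53.4, 53.8 and 50.0 CPM. The groups overlapped for both genes. Log2FC was 0.29 (SE 0.17) for HADHA and 0.30 (SE 0.17) for SLC25A20, and in the M8 and M9 libraries it was 0.29 (SE 0.23) and 0.46 (SE 0.22), with adjusted p of 0.99998 in all libraries and 0.99996 in those alone, by edgeR.

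The library names carried larger differences than dosing. In a model with the dosing group, in which the name difference is estimated inside the 2 dosed groups, 5 of the 33 genes (15.2%) were called between M1 and M8 or M9 libraries, against 14% of all genes. That share is near the background, and nothing particular to the pathway can be read from it. Of the 5, ECHS1, PECR and OXCT1 were higher in M1 libraries (5.92% of all genes were) and CPT2 and MLYCD lower (8.06% of all genes were). At an unadjusted p under 0.05 stood 10 of the 33, against 29.9% of all genes. The median log2FC of the 33 was -0.02 against -0.01 for all genes, with 16 positive against 48.6% of all genes. What sets the M1 animals or libraries apart is not given in the labels, and the cause of the differences was not tested. Thinning every library to the total of the shallowest, which evens out totals only, gave the same 5 calls, beside 2115 of 14673 genes.

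ECHS1 had the clearest difference. It measured 299.6, 310.0, 337 and 273 CPM in multidose 1 to 4 and 319 CPM in single dose 1, all M1 libraries, against 145 to 189.7 CPM in the 7 dosed M8 and M9 libraries (median 172). The controls, all M8 or M9, measured 141, 162, 91.5, 194 and 218 CPM. Of the 33 genes, ECHS1 alone had all its M1 libraries outside the range of the others. On the high side 4.19% of all genes did so against dosed M8 and M9 libraries and 2.73% against all M8 and M9 libraries, and on the low side 5.12% and 3.01% did, with 0 of the 33. Log2FC was 0.90 (SE 0.17, adjusted p = 0.00473 by edgeR), and the call held without each of the 17 libraries in turn.

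PECR measured 37.0, 23.3, 29.6 and 19.6 CPM in multidose 1 to 4 and 28.9 CPM in single dose 1, against 9.30 to 19.8 CPM in dosed M8 and M9 libraries (median 14.2). The lowest M1 value fell just inside the range of the others. Log2FC was 0.88 (SE 0.21, adjusted p = 0.0129 by edgeR). Without single dose 1, the only M1 library with a single dose, it was 0.78 and the call was lost (adjusted p = 0.0909 by edgeR). The call was also lost with the name suffix as a covariate (0.71, adjusted p = 0.0671 by edgeR) and in the multidose libraries only (0.78, adjusted p = 0.103 by edgeR).

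CPT2 (ENSSSCG00000003851, chromosome 6, 159038129 to 159061327) measured 21.9, 45.7, 40.2 and 37.6 CPM in multidose 1 to 4 and 25.5 CPM in single dose 1, against 40.2 to 71.0 CPM in dosed M8 and M9 libraries (median 56.6). Multidose 1 and single dose 1 were the lowest libraries, and controls at 49.4, 51.0, 61.6, 46.9 and 53.1 CPM all lay above the M1 libraries. Log2FC was -0.82 (SE 0.17, adjusted p = 0.00754 by edgeR), -0.72 without single dose 1 (adjusted p = 0.0505 by edgeR) and -0.71 in the multidose libraries only (adjusted p = 0.0946 by edgeR).

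MLYCD (ENSSSCG00000031450, chromosome 6, 4683386 to 4698698), which encodes malonyl-CoA decarboxylase, measured 21.2, 23.4, 20.9 and 24.8 CPM in multidose 1 to 4 and 15.0 CPM in single dose 1, against 16.98 to 43.2 CPM in dosed M8 and M9 libraries (median 27.7). The controls, at 20.2, 18.9, 28.3, 26.3 and 22.6 CPM, overlapped the M1 libraries. Log2FC was -0.67 (SE 0.18, adjusted p = 0.0225 by edgeR), and the call was lost without single dose 1 (adjusted p = 0.108) or without multidose 5, the highest library (adjusted p = 0.0800). Without the dosing group in the model it was -0.36 (adjusted p = 0.164 by edgeR), and in the multidose libraries only -0.59 (adjusted p = 0.0671 by edgeR).

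OXCT1 (ENSSSCG00000016863, chromosome 16, 26514497 to 26659739) measured 593, 506, 549 and 286 CPM in multidose 1 to 4 and 532 CPM in single dose 1, against 283 to 338 CPM in dosed M8 and M9 libraries (median 318) and 165, 347, 421, 303 and 393 CPM in controls. Multidose 4, the only M1 library with the name suffix, lay with the M8 and M9 libraries. The other 4 M1 libraries, also the shallowest, lay apart above them. Its log2FC of 0.66 (SE 0.21, adjusted p = 0.0464 by edgeR) was at the edge of the threshold. The call was lost without multidose 1, 2, 3, 5, 6 or 7, any single dose library or vehicle control 2 (adjusted p from 0.0521 to 0.182 by edgeR), with log2FC from 0.60 to 0.69. It was also lost with no low-count filter (0.66, adjusted p = 0.0518 by edgeR). With the name suffix as a covariate the log2FC was 0.33 (adjusted p = 0.356 by edgeR), and in the multidose libraries only it was 0.62 (adjusted p = 0.141 by edgeR).

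**Figure D4:**
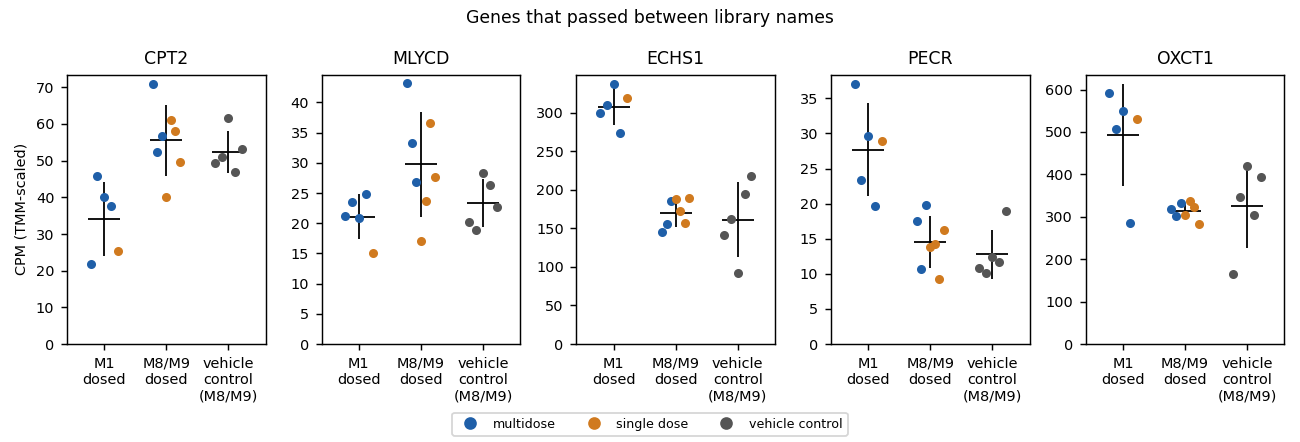
CPM (y axis, from 0) of the 5 genes called between library names is shown for dosed M1, dosed M8 and M9 and vehicle control libraries, with points coloured by dosing group and black lines for the mean and SD. For ECHS1 the 5 M1 libraries lay at 273 to 337 CPM and the dosed M8 and M9 libraries at 145 to 189.7 CPM, while for MLYCD the ranges overlapped.

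The other genes did not pass between names, and roles were not tested against each other. The later mitochondrial steps, ECHS1 included, were positive in 6 of 7 genes, with a median of 0.22: ACAA2, the mitochondrial thiolase, was at 0.66 (SE 0.23, adjusted p = 0.0630 by edgeR) and HADH, the short-chain hydroxyacyl-CoA dehydrogenase, at 0.46 (SE 0.16, adjusted p = 0.0704 by edgeR). Of the peroxisomal genes HSD17B4, the D-bifunctional protein, was at 0.40 (SE 0.15, adjusted p = 0.0723 by edgeR), and among the auxiliary enzymes DECR1 was at 0.33 (SE 0.13, adjusted p = 0.0967 by edgeR). The 4 activation and carnitine shuttle genes, CPT2 included, were all negative with a median of -0.37, ACSL1 at -0.42 (SE 0.22) and CRAT, carnitine acetyltransferase, at -0.33 (SE 0.15). So were the uptake genes, SLC27A1, a fatty acid transport protein, at -0.41 (SE 0.22) and FABP3 at -0.08 (SE 0.24). ACADM was at -0.22 (SE 0.22), ETFDH at -0.10 (SE 0.14), ACAA1 at -0.07 (SE 0.13) and HADHA at 0.00 (SE 0.18).

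**Figure D5:**
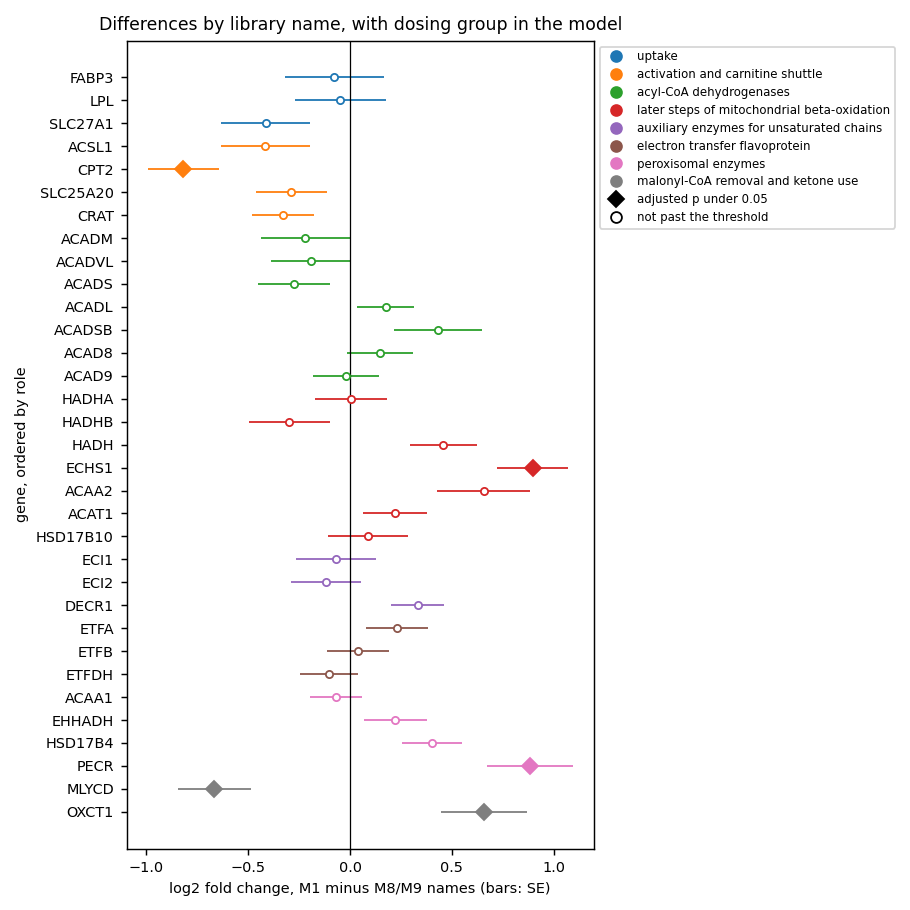
Log2 fold changes of M1 minus M8 and M9 libraries with their SE (x axis), from the model with the dosing group, are drawn for the 33 genes (y axis) in the colour of their role, filled diamonds marking an adjusted p under 0.05. CPT2 stood at -0.82 and MLYCD at -0.67, while ECHS1, PECR and OXCT1 stood at 0.90, 0.88 and 0.66.

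An interaction tested whether multidose minus single dose differed between name classes, and edgeR called 0 of 33 genes and 0% of all genes. Since no control has an M1 name, dosing against vehicle could not be compared between name classes. ACAD8, an acyl-CoA dehydrogenase of valine breakdown, alone had an unadjusted p under 0.05, at -0.70 (SE 0.32, adjusted p = 0.99997 by edgeR), against 2.9% of all genes. Interaction values were positive for 7 of the 33, against 53% of all genes, with a median of -0.17. The M1 single dose class holds 1 library, whose spread was taken from the others.

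Lists of other pathway genes were described by their counts, beside 5.92% of all genes called higher and 8.06% called lower between names. Between names, the lipid uptake and storage list had 1 of 20 genes higher (CAV1, caveolin-1, at 0.69) and 4 lower, with the smallest p for PLIN2, a lipid droplet protein (-1.199), and PNPLA2, the main triglyceride lipase (-0.70). The list of other acyl-CoA synthetase, carnitine and thioesterase genes had 1 of 17 higher and 1 lower. Other oxidation genes had 2 of 31 higher, HIBCH (0.55) and PHYH (1.05), and 3 lower, among them ACOX3 (-0.57), a peroxisomal acyl-CoA oxidase. Regulators of the pathway had 1 of 25 higher, TFAM (0.47), and 5 lower, among them PRKAG2 (-1.04), a regulatory subunit of AMP-activated kinase, and PPARD (-0.60), a nuclear receptor that drives fatty acid genes. Complex I had 6 of 32 higher and none lower, and the TCA cycle list had 0 of 19 called by edgeR, with 4 at an unadjusted p under 0.05. Fibroblast markers moved with the names, with 4 of 10 higher, while 0 of 13 cardiomyocyte markers were called. Fibroblast sums were 5081 to 9006 CPM in M1 libraries, 3191 to 6889 CPM in dosed M8 and M9 libraries and 4101 to 7088 CPM in controls. T and natural killer cell markers had 2 of 9 lower (CD3D at -1.18 and CD3E at -1.28) and all 9 negative, with a median of -0.73. Their sums were 14.7 to 26.8 CPM in M1 libraries against 29.4 to 54.6 CPM in dosed M8 and M9 libraries. In controls they were 21.7 to 65.9 CPM, with vehicle control 4 inside the M1 range. Erythroid markers had 1 of 4 higher (AHSP at 2.30) and all 4 positive, with a median of 1.79. AHSP was near the floor, at 0.025 to 1.48 CPM over the 17 libraries. Erythroid sums were 96.8 to 638 CPM in M1 libraries against 25.9 to 188 CPM in dosed M8 and M9 libraries. In controls they were 60.7 to 506 CPM, with vehicle controls 1, 2 and 4 inside the M1 range. Of the other marker lists, 1 of 6 adipocyte genes was higher (CIDEA at 1.58, with 0.206 to 3.98 CPM over the 17 libraries). So was 1 of 11 endothelial genes (TEK at 0.69). Of smooth muscle and pericyte genes 1 of 9 was lower (CNN1 at -2.19), and 0 of 9 macrophage and monocyte genes were called by edgeR. The part of these lists in the values of the fatty acid genes was not tested.

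In the dosing comparisons 0 genes of any of these lists were called by edgeR. Values of PDK4, a kinase that turns pyruvate oxidation down when fatty acids are used, were -1.94 (SE 0.74) for multidose against vehicle and -2.45 (SE 0.85) for single dose against vehicle, with adjusted p of 0.372 and 0.891. Among M8 and M9 libraries PDK4 stood at -1.02 (SE 0.86) after multiple doses and at -2.29 (SE 0.82) after a single dose, and without vehicle control 1 at -2.09 (SE 0.79) and -2.60 (SE 0.89). CPT1A, the liver isoform of the outer membrane carnitine palmitoyltransferase, stood at -0.75 (SE 0.26) and -1.02 (SE 0.28), with adjusted p of 0.366 and 0.876. Its values among M8 and M9 libraries were -0.42 (SE 0.30) and -0.91 (SE 0.28), and without vehicle control 1 they were -0.59 (SE 0.27) and -0.87 (SE 0.29). All 32 complex I genes were positive in both comparisons, with medians of 0.33 for multidose and 0.23 for single dose against vehicle. Vehicle control 3 held the lowest level of the 17 libraries for 26 of the 32 (81.2%), against 14% of all genes tested. Without that control the medians were 0.26 (31 positive) and 0.12 (30 positive), while the M8 and M9 libraries gave 0.15 (30 positive) and 0.16 (31 positive).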

How the data were processed

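Counts of reads per gene, deposited by the authors as raw whole numbers, were the only unit used. According to the submitters' processing notes, HISAT2 2.1.0, Subread 1.6.2, SAMtools 1.7, Trimmomatic 0.33 and FastQC 0.11.7 were used, with the build Sscrofa11.1. Strand setting, annotation release and counting options: not given in the sources used here. Tests were run with edgeR 4.0.16 under R 4.3.3 (filterByExpr, TMM, robust quasi-likelihood test, two-sided, Benjamini-Hochberg over all genes tested). Dosing groups formed 1 model of all 17 libraries, and the library name (M1, or M8 and M9) was added for the name comparison. Positions are RefSeq's for Sscrofa11.1, matched by symbol. The 3 genes with the smallest p per comparison and 10 genes standing for pathway steps were described in full, and of each list of other pathway genes the 2 with the smallest p per direction could be named, apart from 1 gene not reported here. Members, lists and the name comparison were chosen with earlier results of these data known. Alternatives were other scalings, filters, DESeq2 1.42.0, limma-voom (limma 3.58.1), covariates, thinning and leaving out each library. Leaving out vehicle control 1 in the M8 and M9 libraries, and vehicle control 1 or 3 for other pathway genes, was added after seeing the data. The pipeline was tested on simulated data. Replicates are individual animals per the series text.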

Additional observations from a re-analysis of the deposited data

Results flagged for a closer look

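In 99 checks of the 33 genes in 3 groups, 4 single libraries lay far from the rest of their group, and chance gives about 1 in 20 groups. In single dose 1, the M1 library of its group, ECHS1 was the highest of the group at 8.32 log2 CPM and OXCT1 at 9.05 log2 CPM. In single dose 4, HSD17B10, a hydroxyacyl-CoA dehydrogenase, was the lowest of the group at 6.98 log2 CPM, and ECI1, an enoyl-CoA isomerase, at 6.69 log2 CPM.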

How the results depend on the processing

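In the comparisons of dosing groups 0 of 33 genes were called under every alternative that was run. Between names, 5 were called, beside 2220 of all 15884 genes tested. There were 11 by limma-voom (4553 of all genes), 7 by DESeq2 (3003) and 6 with upper-quartile scaling (2151). Without the dosing group in the model 9 were called (3783 of all genes), and with no low-count filter 4, without OXCT1 (1753 of 25296 genes). The 12 dosed libraries only gave 9 (2767 of 15391 genes) and the multidose libraries only gave 1 (712 of 13572). With the name suffix as a covariate 5 were called (2736 of all genes), 1 higher (ECHS1) and 4 lower (CPT2, MLYCD, SLC27A1 and ACADS), without PECR and OXCT1. Leaving out 1 library gave 1 (without single dose 1, beside 858 of 16092 genes) to 8. The 8 were called without multidose 4 (1854 of 15842 genes) or vehicle control 1 (2240 of 15981), and 3 without multidose 5 (1450 of 15886). Deviations of same-numbered libraries from their group means correlated at -0.22 to 0.41, over 0.1 in 4 of 15 pairs. The highest value was that of multidose 1 and single dose 1, both M1 libraries. These correlations cannot settle whether the numbers pair the libraries. With a replicate block 0 of the 33 genes were called between names, beside 11 of all 15884 genes, and the median of the 33 was 0.29. Some values between names that had not been called changed sign. With the replicate block FABP3 was 0.57, ACSL1 0.16, ACADM 0.13, ETFDH 0.26 and ACAA1 0.11. With the name suffix as a covariate FABP3 was 0.20 and HADHA -0.11. Without the dosing group FABP3 was 0.056 and ACAA1 0.017, and in multidose libraries only FABP3 was 0.017. Over fits without 1 library, FABP3 ran from -0.19 to 0.041, HADHA from -0.064 to 0.072 and ACAA1 from -0.19 to 0.019. For multidose against vehicle ECHS1 was -0.0068 in M8 and M9 libraries, and -0.046 there without vehicle control 1. The causes were not tested. Summing rows of a repeated symbol was not run, since no symbol of the 33 repeats, and the interaction could not be fitted without single dose 1. The least counted of the 33 genes, PECR, had 11632 counts over the 17 libraries.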
